A study of Homo sapiens with 11 samples.

Results

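The regions described here are all the CUT&RUN peaks on human chromosome 19, at gene starts or elsewhere, chosen by their chromosome and not by any measured value. They number 322 of the 5435 regions in the 5 deposited lists, with 149 of 2172 in edit_myc_FLAG, 79 of 1290 in myc_FLAG, 87 of 1359 in endog_myc, 2 of 305 in the mouse IgG list and 5 of 309 in the rabbit IgG list. CUT&RUN uses an antibody to bring a nuclease to its target in permeabilised cells and sequences the DNA that is cut free. All libraries were from HEK293T, an established human embryonic kidney cell line, with 3 libraries for each of the 3 target groups and 1 for each IgG. The labels give the groups as edit_myc_FLAG, myc_FLAG and endog_myc, name an anti-FLAG antibody from mouse and an anti-myc antibody from rabbit, each with an IgG of its own species, and do not say what "edit" stands for or how the tagged protein was expressed. Each target list merges its libraries, so no value here has a spread over replicates.

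MYC is a transcription factor that pairs with MAX to bind DNA, most tightly at the E-box, and is found mainly at the active promoters of genes for growth, RNA processing and metabolism. Chromosome 19 is the most gene-dense human chromosome, with many CpG-rich promoters, and it also holds large clusters of zinc finger genes and of immune-receptor and other gene families that are used in other tissues. The IgG libraries show where the method recovers DNA without a specific target.

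Stretches of 10 promoters are shown first, because the results below turn on what lies under the regions at gene starts. They come from the 15 genes with the best mean rank of fold among those with a region at the start in all 3 target lists and in neither IgG list, of which 14 had such a stretch. Each is the part of the gene's RefSeq promoter window (GRCh38.p14) that the regions of all 3 lists covered, written from 5′ to 3′ on the gene's own strand. Capitals mark the CCAAT box, the element bound by the factor NF-Y, as CCAAT or its reverse complement ATTGG; the E-box CACGTG was marked in the same way and was in none of the 10. The first 8 hold between 1 and 6 CCAAT boxes and the last 2 hold none. The 10 were picked after the boxes were counted: of all 14 stretches, 9 held a box and 5 held none, and those not printed are SARS2, which overlaps the MRPS12 stretch and has the same 4 boxes, and ACTMAP, RAB3A and SMG9, with none.
ZNF77, minus strand, chr19:2944983-2945178: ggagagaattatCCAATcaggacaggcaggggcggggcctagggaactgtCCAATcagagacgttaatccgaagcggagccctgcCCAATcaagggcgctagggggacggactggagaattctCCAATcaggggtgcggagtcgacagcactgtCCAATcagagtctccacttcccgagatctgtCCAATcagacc
PROSER3, plus strand, chr19:35757926-35758135: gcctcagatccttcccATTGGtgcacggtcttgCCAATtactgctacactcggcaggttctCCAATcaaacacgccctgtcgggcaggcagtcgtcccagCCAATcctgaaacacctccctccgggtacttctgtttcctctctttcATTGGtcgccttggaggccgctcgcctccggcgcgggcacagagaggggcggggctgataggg
MRPS12, plus strand, chr19:38930694-38930927: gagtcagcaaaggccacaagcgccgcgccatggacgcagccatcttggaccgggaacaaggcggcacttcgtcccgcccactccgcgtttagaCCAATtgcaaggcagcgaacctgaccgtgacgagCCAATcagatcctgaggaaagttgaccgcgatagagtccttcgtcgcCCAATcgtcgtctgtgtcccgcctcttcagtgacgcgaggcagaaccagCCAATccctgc
HNRNPUL1, plus strand, chr19:41264122-41264277: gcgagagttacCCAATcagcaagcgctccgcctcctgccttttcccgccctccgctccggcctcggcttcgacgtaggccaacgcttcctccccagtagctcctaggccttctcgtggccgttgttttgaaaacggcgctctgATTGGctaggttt
LENG1, minus strand, chr19:54159780-54159910: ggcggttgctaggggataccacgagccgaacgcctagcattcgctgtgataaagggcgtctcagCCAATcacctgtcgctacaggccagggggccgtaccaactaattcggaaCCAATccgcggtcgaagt
CNOT3, plus strand, chr19:54137512-54137590: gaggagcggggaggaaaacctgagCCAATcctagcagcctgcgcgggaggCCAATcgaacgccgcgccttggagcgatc
SWSAP1, plus strand, chr19:11374618-11374715: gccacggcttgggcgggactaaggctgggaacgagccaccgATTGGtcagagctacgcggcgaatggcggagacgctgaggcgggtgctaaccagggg
PPP2R1A, plus strand, chr19:52189892-52190101: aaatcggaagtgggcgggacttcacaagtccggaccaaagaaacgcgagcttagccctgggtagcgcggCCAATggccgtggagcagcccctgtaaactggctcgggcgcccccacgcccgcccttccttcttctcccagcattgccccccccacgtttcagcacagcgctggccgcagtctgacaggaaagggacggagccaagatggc
MYPOP, minus strand, chr19:45902721-45902863: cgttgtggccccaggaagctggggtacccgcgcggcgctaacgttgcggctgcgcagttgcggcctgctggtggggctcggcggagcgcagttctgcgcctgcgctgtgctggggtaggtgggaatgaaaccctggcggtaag
SNRPA, plus strand, chr19:40750953-40751108: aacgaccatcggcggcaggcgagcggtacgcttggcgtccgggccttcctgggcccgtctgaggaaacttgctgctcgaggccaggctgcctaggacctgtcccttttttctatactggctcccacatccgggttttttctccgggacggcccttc
The stretch of ZNF77, a zinc finger gene, holds 6 CCAAT boxes in 196 bases, and that of PROSER3 holds 5 in 210. The MRPS12 stretch, which holds 4, lies before the start of MRPS12 and reaches into the 5′ end of SARS2, which is transcribed the other way.

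Most regions on chromosome 19 lay at the start of a protein-coding gene, and on the other chromosomes most did not. A region was counted at a start when its summit was within 1000 bp of one. In edit_myc_FLAG 100 of 149 regions were at a start (67.1%, 95% Wilson interval 59.2 to 74.1), against 35.8% of 1793 regions on the other chromosomes. In myc_FLAG it was 63 of 79 (79.7%, 69.6 to 87.1) against 20.6% of 994, and in endog_myc 63 of 87 (72.4%, 62.2 to 80.7) against 23.6% of 1056. The differences were 31.3, 59.1 and 48.8 percentage points, and each passed a two-sided Fisher's exact test (adjusted p = 2.27e-13, 7.56e-26 and 1.70e-19, Benjamini-Hochberg over the 5 lists). The intervals and tests take regions as units and cover counting error only. Neighbouring regions are not fully independent and the lists share loci, so these p-values are smaller than independent units would give.

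Chromosome 19 was also the densest in genes. It held 24.1 protein-coding genes per Mb, and the next chromosome, 17, held 13.9. On chromosome 19, 5.84% of the span from the first annotated gene to the last lay within 1000 bp of a start, against 1.65% on the other chromosomes, a ratio of 3.54. The share of regions at a start was higher on chromosome 19 by a ratio of 3.87 in myc_FLAG, 3.07 in endog_myc and 1.87 in edit_myc_FLAG. Chromosome 19 ranked first of 23 chromosomes for the share at a start in all 3 target lists, and chromosome 14 came second with 59.1%, 60% and 69.2%. Against chromosomes 17 and 22 alone, which are also gene-rich, the share on chromosome 19 was still higher in all 3 lists and passed the test. By genes per Mb, chromosome 17 ranked 2, chromosome 22 ranked 3 and chromosome 14 ranked 10. For the share at a start in edit_myc_FLAG, myc_FLAG and endog_myc, chromosome 17 ranked 7, 7 and 9, and chromosome 22 ranked 22, 12 and 7. How much of the difference from other chromosomes comes with gene density was not tested.

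The IgG lists held too few regions on chromosome 19 for more than a count. None of the 2 mouse IgG regions was at a gene start. In rabbit IgG 3 of 5 were (60%), against 5.38% of 223 on the other chromosomes (two-sided Fisher's exact test, adjusted p = 0.00269), and none of the 3 had a −log10 q of at least 5.

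**Figure D1:**
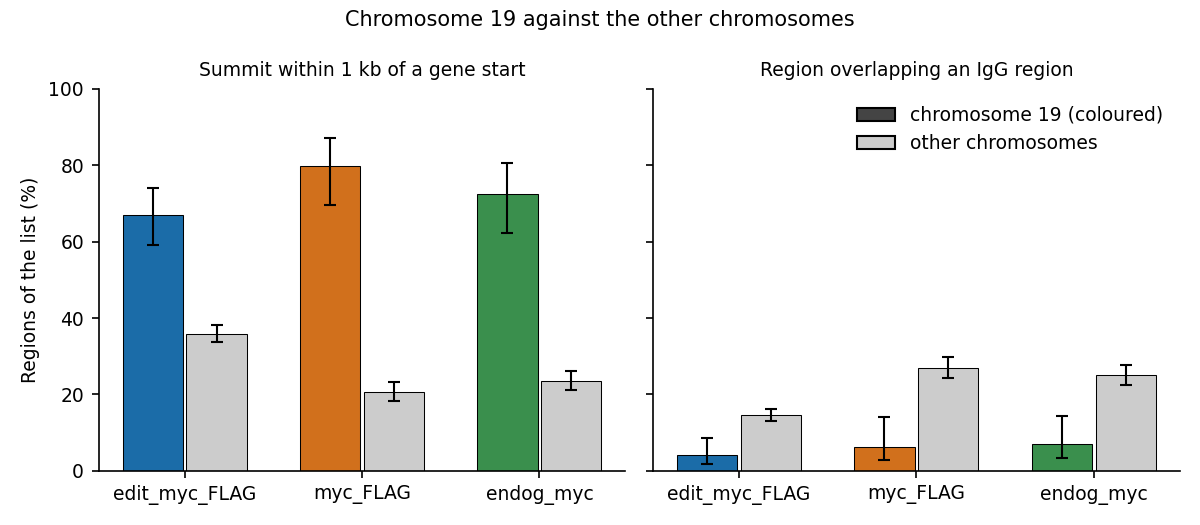
Share of the regions in each target list, in percent, with a summit within 1 kb of a gene start (left) and overlapping an IgG region (right), on chromosome 19 (coloured) and on the other chromosomes (grey). Error bars are 95% Wilson intervals over regions; on chromosome 19 the share at a start was 67.1% to 79.7%, and the share overlapping IgG 4.03% to 6.90%.

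No difference in this share between the target lists on chromosome 19 passed the test. The share in edit_myc_FLAG was 12.6 percentage points below that in myc_FLAG (two-sided Fisher's exact test, p = 0.0466, adjusted p = 0.140 over 3 pairs). By the same exact test it was 5.30 points below endog_myc (adjusted p = 0.466), and myc_FLAG was 7.33 points above endog_myc (adjusted p = 0.424). These tests take the lists as independent, but the lists share loci. On chromosome 19, 58 of 79 myc_FLAG regions overlapped edit_myc_FLAG. The sign of the difference between edit_myc_FLAG and endog_myc turned when only regions with a −log10 q of at least 5 were kept, to 1.52 points above, and when every list was held to the same number of highest-fold regions, to 2.00 points above.

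Few of the regions on chromosome 19 lay in gene-poor DNA, over 100000 bp from any annotated gene. Off chromosome 19 these made up 39.9% of myc_FLAG, 38.5% of endog_myc and 17.9% of edit_myc_FLAG. On chromosome 19 there was 1 such region in edit_myc_FLAG (0.671%), 1 of 87 in endog_myc and none of 79 in myc_FLAG, a count of 0 that allows a share of up to 3.80%. These regions lay at chr19:24891496-24891787 and chr19:24894687-24894894, and neither overlapped an IgG region. The uniqueness of read mapping at these positions was not tested. Such DNA made up 6.0% of the span of chromosome 19 and 7.49% of the span of the others. Where it was left out, chromosome 19 still had the higher share at a start in all 3 lists.

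Chromosome 19 regions overlapped IgG regions less often than regions elsewhere. In edit_myc_FLAG 6 of 149 did (4.03%, against 14.6% on the other chromosomes), in myc_FLAG 5 of 79 (6.33% against 26.9%) and in endog_myc 6 of 87 (6.90% against 25%). All 3 differences passed a two-sided Fisher's exact test (adjusted p = 9.68e-05, 3.33e-05 and 5.28e-05 over the 3 lists). They passed under each alternative that was run for this comparison. Chromosome 19 held only 2 mouse and 5 rabbit IgG regions, at 6 loci, so only a few target regions there could overlap one. By regions per Mb it ranked 15 and 8 of 23 chromosomes in mouse and rabbit IgG, and first in each target list. Whether the overlap was lower than these numbers alone would give was not tested.

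Every IgG region on chromosome 19 overlapped a target region, and they fell at 6 loci. Locus ARHGEF18, inside a gene for a guanine nucleotide exchange factor, was in all 5 lists (chr19:7450346-7451076 in endog_myc). Its fold enrichment, as the authors' peak caller gave it, was 13.0 in edit_myc_FLAG, 11.8 in myc_FLAG, 11.3 in endog_myc, 8.03 in mouse IgG and 6.78 in rabbit IgG. It had the highest fold on the chromosome in both FLAG lists and in both IgG lists, and the highest −log10 q in all 5 lists but rabbit IgG. The region inside GPI, which encodes the glycolytic enzyme glucose-6-phosphate isomerase, had folds of 8.61, 8.16 and 7.41 in the 3 target lists and 6.21 in rabbit IgG. A region inside LOC105372472 had folds of 7.37 in edit_myc_FLAG, 8.22 in endog_myc and 5.30 in mouse IgG and was not in myc_FLAG.

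The other 3 IgG loci were at gene starts and were found in rabbit IgG. KHSRP, an RNA-binding protein of splicing and mRNA decay, had folds of 6.13, 8.98 and 9.34 in the target lists and 5.10 in rabbit IgG. HNRNPL, a splicing regulator, had 7.64, 7.44 and 8.28, and 5.47 in rabbit IgG. CIC, a transcriptional repressor, had 6.27, 8.57 and 7.34, and 5.22 in rabbit IgG. Folds come from separate peak calls, so values of different lists stand side by side and were not tested against each other.

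Of the 1410 protein-coding genes on chromosome 19, 142 had a region at the start in at least 1 target list. In edit_myc_FLAG there were 115 genes (8.16%), where 4.42% of all 19821 protein-coding genes tested had one. In myc_FLAG there were 79 (5.60%, against 1.67% of all), in endog_myc 74 (5.25%, against 1.89%), in rabbit IgG 3 (0.213%, against 0.0908%) and in mouse IgG none (against 0.0151%). Chromosome 19 holds 7.11% of the genes tested, and it held 13.1%, 23.8% and 19.8% of the genes with a region at the start in edit_myc_FLAG, myc_FLAG and endog_myc. By the share of its genes it ranked first of 23 chromosomes in myc_FLAG and endog_myc. It ranked second in edit_myc_FLAG, after chromosome 21 with 11.3%. With a −log10 q of at least 5 the counts were 59, 45 and 54 genes.

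**Figure D2:**
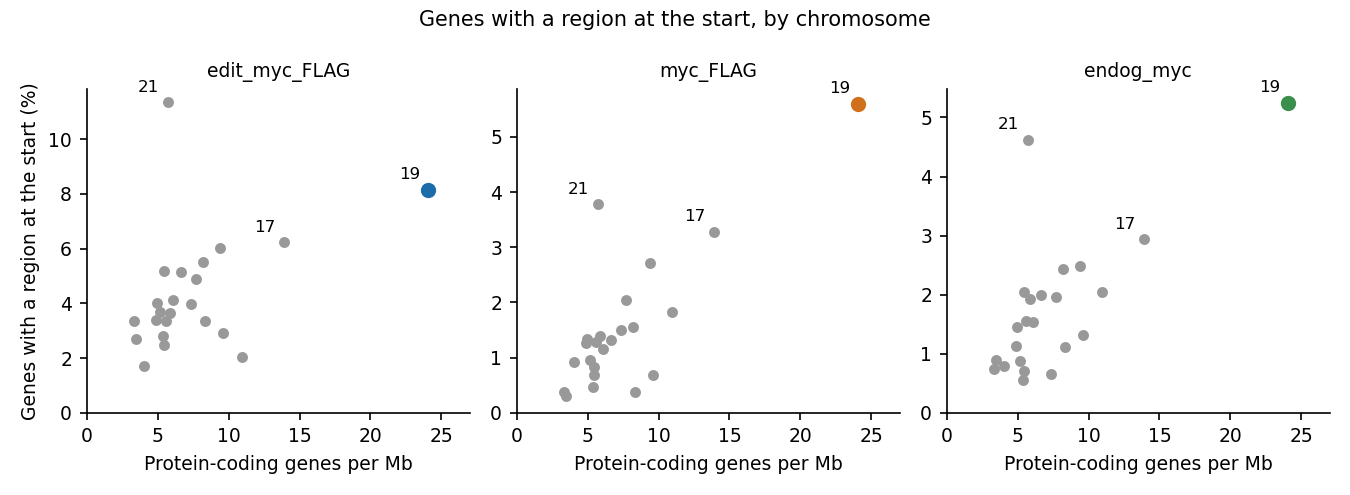
Percent of the protein-coding genes of each chromosome with a region at the start (vertical axes, scaled separately for each list) against protein-coding genes per Mb (horizontal axes); each point is 1 chromosome and chromosome 19 is the coloured point. Chromosome 19 stands at 24.1 genes per Mb and 8.16%, 5.60% and 5.25% in the 3 lists, and chromosome 21 is higher in edit_myc_FLAG.

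The lists named many of the same genes. Of the 142 genes, 48 were in all 3 target lists, and 3 of these 48 (KHSRP, HNRNPL and CIC) were also in rabbit IgG. A further 12 were in edit_myc_FLAG and myc_FLAG, 13 in edit_myc_FLAG and endog_myc and 5 in myc_FLAG and endog_myc. The other genes were in 1 list, with 42 in edit_myc_FLAG, 14 in myc_FLAG and 8 in endog_myc. The 60 genes shared by both FLAG lists were 52.2% of those in edit_myc_FLAG and 75.9% of those in myc_FLAG. The 53 shared by myc_FLAG and endog_myc were 67.1% and 71.6% of each, and the 61 shared by edit_myc_FLAG and endog_myc were 53.0% and 82.4% of each. For 6 genes in 2 or more lists (DNAJB1, AKAP8L, THAP8, WDR62, ARHGAP35 and ZSCAN5A) the regions of edit_myc_FLAG and endog_myc were separate and did not overlap. The edit_myc_FLAG list is the longest, and the depth behind each list is unknown, so that a gene missing from a list was not called there and no more can be said of it.

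By position, the target regions fell at 188 loci, where overlapping regions of different lists were joined, and 123 of the loci (65.4%) held a region at a gene start. The 47 loci of all 3 lists were at a start in 41 cases (87.2%). The 74 loci of edit_myc_FLAG alone were at a start in 42 cases (56.8%), the 16 of myc_FLAG alone in 10 and the 19 of endog_myc alone in 10.

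Regions shared between lists had the higher folds. On chromosome 19 the median fold of regions that overlapped another target list was 6.13, 5.98 and 6.67 (edit_myc_FLAG, myc_FLAG and endog_myc), against 4.96, 4.82 and 4.92 for regions that did not. Regions at a start had median folds of 5.74, 5.75 and 6.39, against 4.76, 4.95 and 5.33 elsewhere. Over all regions of chromosome 19 the medians were 5.34, 5.74 and 6.21, and on the other chromosomes 5.35, 5.46 and 5.43. The highest folds of chromosome 19, from 11.8 to 13.0, were far below the highest elsewhere, from 37.6 to 44.2.

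Whether chromosome 19 regions were shared between target lists more often than others depended on the IgG regions. With all regions, none of the 6 ordered pairs of lists differed (two-sided Fisher's exact tests, lowest adjusted p = 0.119). For example, 73.4% of 79 myc_FLAG regions on chromosome 19 overlapped edit_myc_FLAG, against 61.4% of 994 elsewhere. Without the regions that overlapped IgG, all 6 differences passed the test, at 13.4 to 22.1 percentage points. The same pair then stood at 71.6% against 49.5% (exact test, adjusted p = 0.000689). Against chromosomes 17 and 22 alone, 4 of the 6 differences turned negative, and none passed.

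Among regions at gene starts, a comparison added after seeing the data, edit_myc_FLAG overlapped another target list in 58 of 100 cases on chromosome 19 and in 31.0% of 642 elsewhere (two-sided Fisher's exact test, adjusted p = 1.23e-06 over 3 lists). In endog_myc it was 53 of 63 (84.1%) against 66.7% of 249 (exact test, adjusted p = 0.0124), and in myc_FLAG 53 of 63 (84.1%) against 73.2% of 205 (adjusted p = 0.0928). The first 2 no longer passed the exact test against chromosomes 17 and 22 alone (adjusted p = 0.202 for both) or with a −log10 q of at least 5 (adjusted p = 0.0545 and 0.259).

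Summits on chromosome 19 lay close to the start and mostly before it. For the regions at a gene whose strand is known, 93 in edit_myc_FLAG, 62 in myc_FLAG and 61 in endog_myc, the median distance from summit to nearest start was 161, 150 and 164 bp. In edit_myc_FLAG 68 summits were upstream and 25 downstream, in myc_FLAG 47 and 15, and in endog_myc 54 and 7. The median position, negative when upstream, was −156 bp in endog_myc, −124 bp in myc_FLAG and −111 bp in edit_myc_FLAG. Off chromosome 19 the counts upstream and downstream were 349 and 202, 129 and 49, and 165 and 54. A summit within 1000 bp of the starts of 2 or more genes was found for 17, 16 and 11 regions, and for 12, 13 and 8 of these a pair of genes was transcribed in opposite directions.

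**Figure D3:**
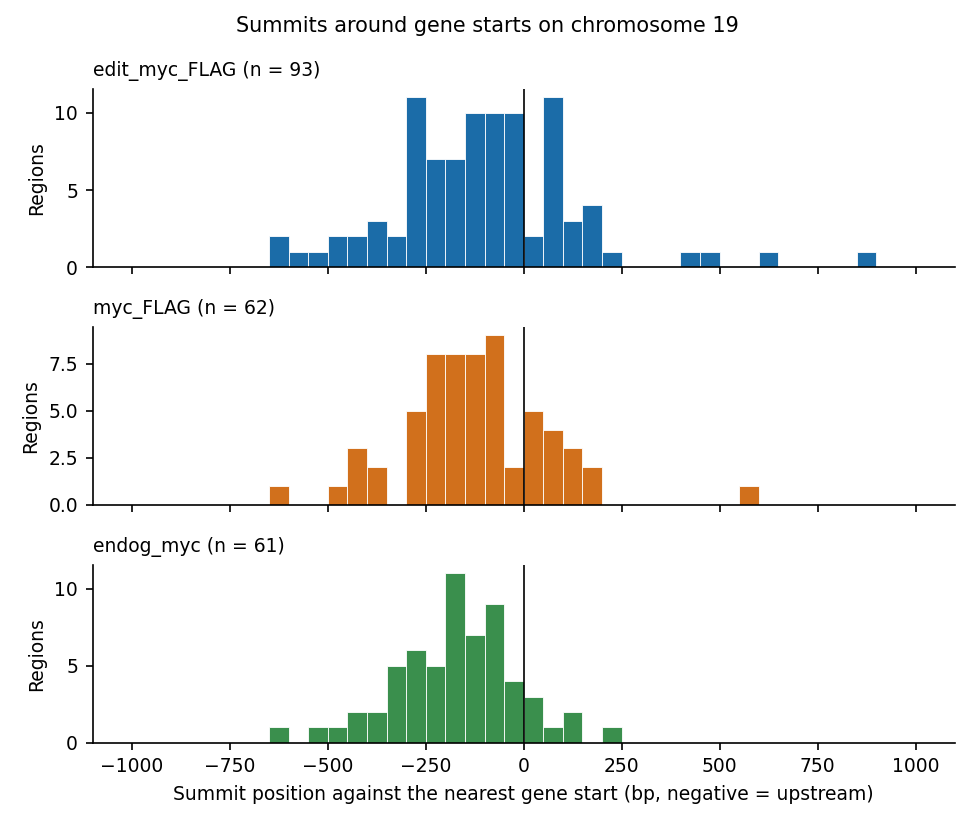
Number of regions at gene starts on chromosome 19 by the position of the summit against the nearest start, in bp and in bins of 50 bp, for genes with known strand (93, 62 and 61 regions). In each list most summits lie left of 0, upstream of the start, and 69.9%, 79.0% and 70.5% lie within 250 bp of it.

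The genes with the best mean rank of fold over the 3 target lists, leaving out those with an IgG region, were led by a pair that share 1 region. ACTMAP, an actin-maturing protease, and SNRPA, the A protein of the U1 spliceosomal particle, lie back to back, and the region between them had a fold of 9.78 in myc_FLAG, 9.62 in endog_myc and 8.55 in edit_myc_FLAG. HNRNPUL1, an RNA-binding protein of the hnRNP family, had 9.17, 8.83 and 8.36. SWSAP1, a gene of DNA repair, had 8.16, 10.8 and 8.30. Its myc_FLAG value was the highest of any chromosome 19 gene start in that list.

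MYPOP, a Myb-related transcription factor, had the largest spread between lists, with 7.81 in edit_myc_FLAG, 7.08 in myc_FLAG and 12.3 in endog_myc, where it was the highest of all chromosome 19 regions. RAB3A, a small GTPase of synaptic vesicle release, had 7.39, 7.75 and 6.77, and PPP2R1A, the scaffold subunit of protein phosphatase 2A, had 7.43, 6.73 and 7.16. For these 2 genes the lists stood within about 1 unit of fold.

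MRPS12, a protein of the mitochondrial ribosome, and SARS2, the mitochondrial seryl-tRNA synthetase, share the region whose sequence is given above, with folds of 5.46, 7.84 and 8.10. LENG1 (5.04, 7.51 and 9.23) and CNOT3, a subunit of the CCR4-NOT deadenylase (5.16, 7.43 and 8.42), showed the same order, lowest in edit_myc_FLAG and highest in endog_myc. MPND had 6.31, 7.31 and 7.44. The other 3 were highest in edit_myc_FLAG or myc_FLAG: ZNF77 had 8.49, 5.74 and 7.65, PROSER3 had 6.81, 9.20 and 6.70, and SMG9, a component of nonsense-mediated decay, had 8.11, 6.48 and 6.85. With 1 value per list, none of these orders has a replicate check.

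**Figure D4:**
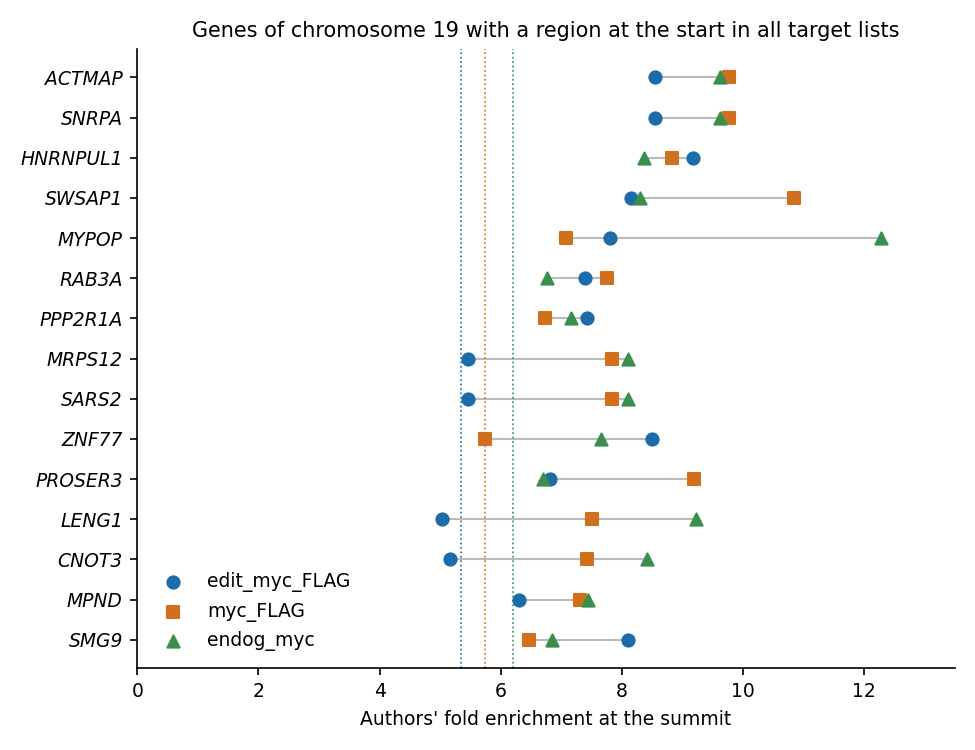
The authors' fold enrichment at the summit (horizontal axis, no unit) for the 15 genes of chromosome 19 with the best mean rank over the 3 target lists, 1 point per list; dotted lines are the medians over all chromosome 19 regions of each list (5.34, 5.74 and 6.21). LENG1 and CNOT3 lie just under the dotted line in edit_myc_FLAG, ZNF77 lies on it in myc_FLAG and the other points lie above that of their own list.

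Genes found in 1 target list only had lower median folds than genes of that list found in another as well, at 4.87 against 6.45 in endog_myc, 5.16 against 5.98 in myc_FLAG and 5.25 against 6.11 in edit_myc_FLAG. In edit_myc_FLAG the 5 highest were ALDH16A1 (6.96), PRKACA, the catalytic subunit of protein kinase A (6.91), ISOC2 (6.32), SERTAD1 (6.30) and SNRNP70, the 70K protein of the same particle (6.24). In myc_FLAG they were SLC25A41 (8.98), LIN37, a subunit of the cell-cycle MuvB complex (8.25), PODNL1 (6.61), PRKD2, a protein kinase D (5.72), and RBM42 (5.48). The SLC25A41 region is that of KHSRP, and SLC25A41, whose strand is not known, was counted because the summit was near 1 end of its span. The region overlaps a rabbit IgG region. LIN37 had no IgG region, and its fold was above that of several of the top shared genes in myc_FLAG. The PODNL1 summit lay 998 bp from the gene's start, just inside the limit. Its region is that of the DCAF15 start, where endog_myc had an overlapping region with a fold of 6.87. In endog_myc they were TECR, an enzyme of fatty acid elongation (6.30), ZFP30 (5.40), ALKBH6 (5.16), MRPL54 (5.08) and HDGFL2 (4.66), of which only TECR was above the median of the list.

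Several splicing and mRNA processing genes were among those with a region. Of the 40 on chromosome 19 in a list written for this work, 11 had one in edit_myc_FLAG (27.5%). In each of myc_FLAG and endog_myc it was 8 (20%), and in any of the 3 target lists 12 (30%, beside 10.1% of all 1410 genes). This gene list and those below were chosen with earlier results of these data known. Their shares describe the listed genes and were not tested. The 12 were SNRPA, HNRNPUL1, KHSRP, HNRNPL, SMG9 and CNOT3 in all 3 target lists, AKAP8, AKAP8L, SNRPD2, LSM4, SNRNP70 and RBM42 in 1 or 2. Among them KHSRP and HNRNPL also had a rabbit IgG region. AKAP8L, a nuclear anchoring protein that binds RNA, had a fold of 10.3 in edit_myc_FLAG, the highest of any chromosome 19 gene start in that list. Its strand is not known, and its endog_myc region, with a fold of 5.38, lies at the other end of its span and is that of the AKAP8 start.

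Genes of RNA polymerase II transcription and chromatin numbered 24, of which 7 had a region in edit_myc_FLAG (29.2%), 6 in myc_FLAG (25%) and 3 in endog_myc (12.5%), beside 8.16%, 5.60% and 5.25% of all genes of the chromosome. In any target list it was 10 (41.7%, beside 10.1% of all). PAF1, of the elongation complex of that name, and MED29, a Mediator subunit, share 1 region with folds of 6.94, 4.41 and 4.09. POLR2I, a subunit of RNA polymerase II, had 6.11, 6.13 and 5.88. Its strand is not known, and it was counted because the summits lay 506 to 680 bp from 1 end of its span. The region is that of the TBCB start, with summits 70 to 87 bp from it. UHRF1 (5.30), which maintains DNA methylation, and GTF2F1 (5.78), a subunit of TFIIF, were in edit_myc_FLAG alone.

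The smaller lists gave few genes each, to be read beside the 10.1% of all genes of the chromosome with a region in any target list. Of 28 genes of the mitochondrial ribosome, respiration and import, 5 had a region in any target list (17.9%), among them TOMM40, the channel of the outer membrane, with 6.99, 5.81 and 6.72. Of 14 genes of DNA repair and replication 3 had one (21.4%), SWSAP1, ERCC2 (4.48 in myc_FLAG and 6.80 in endog_myc) and POLD1 (5.36 in edit_myc_FLAG). Of 31 signalling kinases and phosphatases 6 had one (19.4%), among them TYK2, a kinase of cytokine receptors, with 4.83 in edit_myc_FLAG and 8.72 in endog_myc. Of 12 translation factors and tRNA synthetases only SARS2 had one (8.33%).

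Some groups of genes had no region at a start in any of the 5 lists. None of the 13 genes for proteins of the cytosolic ribosome did, a count of 0 that allows a share of up to 23.1%. The same held for the 22 CEACAM and PSG genes (up to 13.6%), the 30 KIR, LILR and SIGLEC receptor genes (up to 10%), the 15 kallikreins (up to 20%), the 12 CYP2 and CYP4F genes (up to 25%) and the 20 olfactory receptor genes (up to 15%). Each limit is 3 divided by the number of genes in the group, an approximate bound and not a Wilson interval. For 5 of these 6 groups the limit is above the 10.1% of all genes of the chromosome. For the KIR, LILR and SIGLEC genes it is about level with that share. A share of that size was therefore not clearly detectable as absent in any of the groups. Zinc finger genes, by far the largest group with 262 members, had a region in 12 cases in edit_myc_FLAG (4.58%), 7 in endog_myc (2.67%) and 4 in myc_FLAG (1.53%), and in 15 for any target list (5.73%). In all 3 lists were ZNF77, ZNF555 (5.79, 7.90 and 6.89) and ZNF57 (3.98, 5.48 and 6.21).

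The CCAAT box was in most promoter windows that held a target summit, and the E-box in few. The windows run from 250 bases before to 50 after a RefSeq start, with 1 window counted per gene, and divergent genes can share bases. Of the 90 genes of chromosome 19 with a target summit in the window, 73 (81.1%, 71.8 to 87.9) held CCAAT on either strand. The share was 36.8% of the 1084 genes of the chromosome with no target summit in a window, and 36.0% of all 15712 genes with a window. The 1084 include genes with a region at the start whose summits lay outside the window, among them CNOT3, SWSAP1 and PPP2R1A. By list, CCAAT was in 95.3% of 43 windows with a summit in endog_myc, 90.7% of 43 in myc_FLAG and 73.6% of 53 in edit_myc_FLAG. At least 2 boxes were in 64.4% of the 90 windows, against 13.0% with no summit, and at least 3 in 44.4% against 3.60%. The share was also high off chromosome 19, at 77.2% of 514 windows with a summit.

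The windows with a summit had a median of 28 CpG, against 20 in those with none. In a split added after the CCAAT share was seen, among windows with at least 20 CpG, 82.7% of 81 with a target summit held CCAAT against 31.6% of 594 without. The 202 CCAAT boxes in the windows with a summit lay at a median position of −102 bp from the start, and neighbouring boxes were a median of 42 bp apart. A box or summit in the overlapping windows of different genes was counted once for each gene, here and below. Among summits in windows that held a box, the median distance to the nearest box was 29 bp over 38 pairs of summit and window in edit_myc_FLAG. It was 31.5 bp over 38 such pairs in myc_FLAG and 17 bp over 40 in endog_myc. Summits in windows with no box were left out. Whether these distances are shorter than the number and spacing of the boxes would give was not tested. The single window with a rabbit IgG summit, that of KHSRP, held 3 boxes.

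The E-box CACGTG was in 7 of the 90 windows (7.78%, 3.82 to 15.2), against 7.38% of windows on chromosome 19 with no target summit and 8.53% of all. The 7 genes were CHAF1A, KDM4B, C19orf47, PLD3, BLOC1S3, NAPA and ISOC2, and all 7 windows held CCAAT too. The related CACGCG was in 20% of the 90, against 14.1% with no summit. The GC box GGGCGG was in 82.2% against 64.6%, and the ETS site CCGGAAG in 14.4% against 18.5%. The longer CCAATCA, which contains CCAAT, was in 35.6% against 10.1%. Both strands were read for each motif, and a match is a description of these letters in a 300-base window, not of binding.

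**Figure D5:**
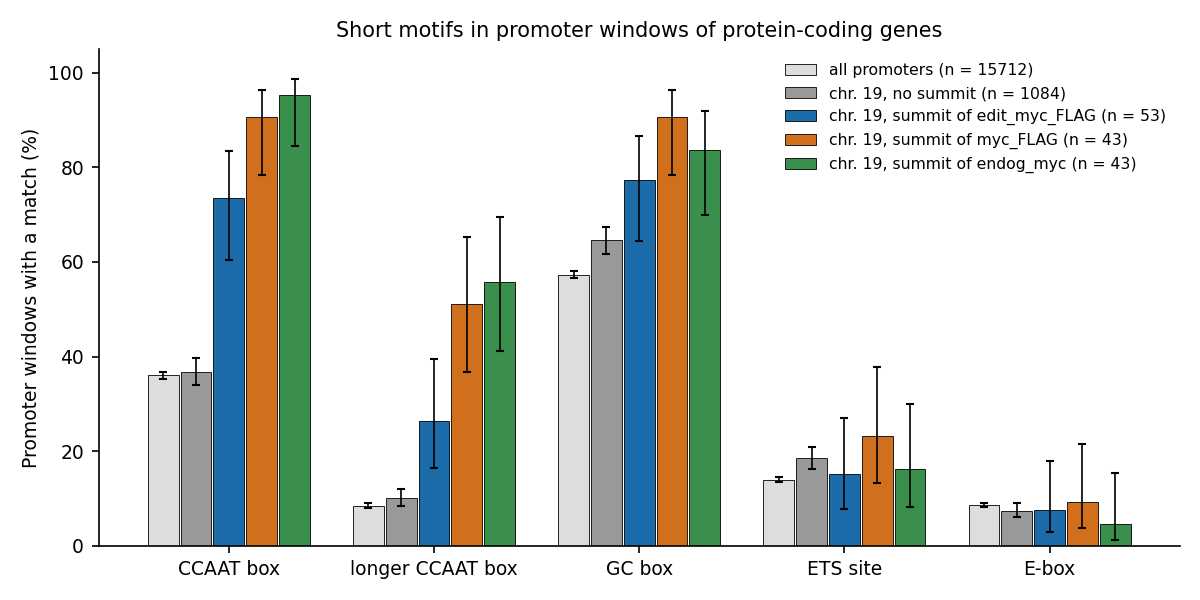
Percent of promoter windows with at least 1 match to each motif. The sets are all genes, chromosome 19 genes with no target summit in a window, and those with a summit of each target list in a window. Error bars are 95% Wilson intervals over genes and n is the number of genes. CCAAT stands at 36.0% and 36.8% in the first 2 sets and at 73.6% to 95.3% in the sets with a summit, while the E-box stands under 10% in all 5.

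Away from gene starts chromosome 19 had 49 regions in edit_myc_FLAG, 16 in myc_FLAG and 24 in endog_myc. Per Mb of span this ranked 4, 10 and 7 of 23 chromosomes, where regions in all ranked first at 2.55, 1.35 and 1.49 per Mb. Protein-coding genes held 22, 7 and 7 of them, other genes 5, 3 and 3, and the DNA between genes 21, 6 and 13. Whether those inside genes are exonic or intronic is not given, as the annotation used lists gene spans only. None lay within 1000 bp of the 3′ end alone of a gene with known strand. The strongest between genes was at chr19:6199599-6199813 in myc_FLAG, 202 bp from LOC105372255, with folds of 7.59, 9.0 and 7.95 in the 3 target lists.

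The 16 chromosome 19 regions with a fold under 3.5 all fell in 2 short stretches, which were singled out after their values were seen. In chr19:36269341-36288383, in the long non-coding RNA gene CYKILR, there were 5 regions with folds of 2.32 to 3.53 and −log10 q of 1.98 to 12.1, in all 3 target lists. In chr19:37269905-37303492, near LOC284412 and ZNF875, there were 13 with folds of 2.39 to 3.55. Neither IgG list had a region in either stretch. The uniqueness of read mapping in these stretches was not tested.

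Along the chromosome the number of regions differed between stretches. In windows of 5 Mb, the stretch from 45 to 50 Mb held 183 genes and 22, 16 and 13 regions, and that from 35 to 40 Mb held 151 genes and 23, 14 and 19, of which 7, 3 and 8 were those of the 2 low-fold stretches. The stretch from 50 to 55 Mb held 156 genes, of which 42 were zinc finger genes, and only 8, 4 and 3 regions. The stretch from 25 to 30 Mb held 7 genes and 2 regions, both in edit_myc_FLAG. From 20 to 25 Mb 31 of 33 genes were zinc finger genes, and there were 3, 0 and 1 regions. From 55 to 60 Mb, where 68 of 135 genes were zinc finger genes, there were 11, 2 and 4.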

How the data were processed

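The authors deposited 1 list of CUT&RUN peaks for each target group (3 libraries each) and for each IgG (1 library each). The sources used here do not say whether reads or calls were merged, nor the control library or options. HOMER 4.10, MACS3 3.0.0b1, Bowtie2 2.4.5 and SAMtools 1.15 are named, with hg38, in the submitters' processing notes. The deposited lists give a start, an end, a caller score (not used), the authors' fold enrichment at the summit, the authors' −log10 q, a −log10 p (not used) and a deposited summit offset. Read depth is unknown, and intervals cover counting error only. The labels do not say that the libraries of a group came from separate cultures.

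Groups came from the labels. Regions on chromosomes 1 to 22 and X were compared, and those on other sequences were not used here. Gene starts came from RefSeq GRCh38.p14 promoter windows for 15812 of 19821 protein-coding genes (1185 of 1410 on chromosome 19). For the rest, whose strand is not in the tables used, either end of the gene span was taken, and 153 genes on scaffolds were left out. A region was at a start when its summit was within 1000 bp. Regions overlapped when they shared at least 1 bp. Shares carry 95% Wilson intervals and were compared with two-sided Fisher's exact tests (both scipy 1.17.1), adjusted by Benjamini-Hochberg within each family and called at 0.05. Differences between lists in the odds ratio of chromosome 19 against the rest were tested by Zelen's exact test of equal odds ratios, two-sided, which replaced a likelihood-ratio test of a logistic model after its result had been seen. Overlap and counting steps were tested on simulated regions. Motifs were searched on both strands of the promoter windows. The limits for gene groups with a count of 0 are 3 divided by the number of genes in the group.

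Genes were named by rule: the 15 with the best mean rank of fold among those with a region at the start in all 3 target lists and no IgG list, the 5 with the highest fold in 1 target list only, members of the gene lists, genes with an IgG region at the start, and the top 3 regions by fold of every list. Alternatives changed the window, the start, the overlap, the −log10 q, the list length, the IgG regions and the chromosomes compared. The members and gene lists were chosen with earlier results of these data known. The motifs, the comparison of regions at starts between lists, the test of equal odds ratios, the settings with stranded genes only and without gene-poor regions, and the 2 low-fold stretches were chosen after seeing the data.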

Additional observations from a re-analysis of the deposited data

Results flagged for a closer look

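The odds of a region being at a gene start on chromosome 19 against the other chromosomes differed between target lists. The odds ratio was 3.66 in edit_myc_FLAG, 15.2 in myc_FLAG and 8.51 in endog_myc. On the log2 scale the ratio of myc_FLAG to edit_myc_FLAG was 2.05 (Zelen's exact test of equal odds ratios over regions, two-sided, adjusted p = 5.95e-05 over 3 pairs), and that of endog_myc to edit_myc_FLAG was 1.22 (adjusted p = 0.0103). The ratio of endog_myc to myc_FLAG was −0.83 (exact test, adjusted p = 0.185). The lists differed in the share at a start on the other chromosomes (35.8%, 20.6% and 23.6%) and in the share of gene-poor regions there (17.9%, 39.9% and 38.5%), while no pair differed by the test on chromosome 19 itself. Without gene-poor regions the first ratio was 1.48 (exact test, adjusted p = 0.0110) and the second 0.71 (adjusted p = 0.182). Both ratios no longer passed with a −log10 q of at least 5 or against chromosomes 17 and 22. The part of list length and depth in these ratios was not tested. Zelen's test takes the lists as independent, but the lists share loci.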

How the results depend on the processing

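No paired analysis was possible because each deposited list merges its 3 libraries and gives no value per replicate, so no replicate block could be fitted and no replicate could be left out in turn. Of 191 values recomputed under an alternative, 160 were counted as the same. For a tested difference this meant the same direction and the same side of the threshold. For a count of genes it meant staying within a set ratio of the main count. For a share of promoter windows it meant staying inside the Wilson interval of the main share. The share at a gene start stayed higher on chromosome 19 in the 3 target lists under all 9 alternatives, by 23.9 to 52.0 percentage points in edit_myc_FLAG, 44.5 to 67.7 in myc_FLAG and 34.9 to 58.2 in endog_myc (two-sided Fisher's exact tests, largest adjusted p = 8.46e-07, 6.83e-09 and 3.38e-06).

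With a −log10 q of at least 5, the share at a start in rabbit IgG was 0 on chromosome 19 and 0 elsewhere, a difference of 0, and edit_myc_FLAG was 1.52 points above endog_myc. The overlap of edit_myc_FLAG with myc_FLAG became 7.55 points lower on chromosome 19 (−7.55), of endog_myc with edit_myc_FLAG −3.76 and of endog_myc with myc_FLAG −11.9. Overlap with another list among regions at starts was 18.7 points higher in edit_myc_FLAG and 10.5 in endog_myc, neither passing. The log2 ratios of odds ratios were 1.49 for myc_FLAG and 0.58 for endog_myc over edit_myc_FLAG, neither passing, and the genes with a region at the start numbered 59 in edit_myc_FLAG and 45 in myc_FLAG.

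With lists of equal length, edit_myc_FLAG was 2.00 points above endog_myc in the share at a start, overlap among myc_FLAG regions at starts was 14.5 points higher (exact test, adjusted p = 0.0313) and the log2 ratio of endog_myc to edit_myc_FLAG was 0.71. Without regions overlapping IgG, the 6 overlaps were 13.4 and 15.3 points higher for edit_myc_FLAG with myc_FLAG and endog_myc, 22.1 and 16.3 for myc_FLAG with edit_myc_FLAG and endog_myc, and 21.7 and 14.7 for endog_myc with edit_myc_FLAG and myc_FLAG, and all passed. Against chromosomes 17 and 22 alone, edit_myc_FLAG overlapped myc_FLAG by −5.72 and endog_myc by −2.36 points, and endog_myc overlapped edit_myc_FLAG by −0.45 and myc_FLAG by −8.92. Overlap among regions at starts was 12.7 and 11.2 points higher for edit_myc_FLAG and endog_myc, and the log2 ratios were 1.13 and 0.41, none passing. Without gene-poor regions, edit_myc_FLAG overlapped myc_FLAG and endog_myc by 11.3 and 12.8 points more (exact tests, adjusted p = 0.0168 and 0.0119), and the log2 ratio of endog_myc to edit_myc_FLAG was 0.71. The causes were not tested, beside the smaller numbers of regions that the stricter settings leave. The share of windows with a summit that held CCAAT ran from 77.0% to 87.1% and that with the E-box from 7.95% to 10.6% over 4 alternatives.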
